A study of Mus musculus with 2 samples.

Results

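Retinoic acid reaches its nuclear receptors through a short chain of enzymes and carriers, and 9 genes of that chain were followed in limb tissue of mouse embryos at embryonic day 10.5: Rdh10, Dhrs3, Aldh1a2, Aldh1a3, Crabp1, Crabp2, Cyp26a1, Cyp26b1 and Cyp26c1. They were chosen by gene symbol, matched to Ensembl identifiers, and all 9 were found in both libraries among 42462 named genes. Their 22 annotated transcripts were taken from 103639 Ensembl transcripts. Total RNA above 200 nt was measured from limbs of B6NCrl embryos, with males and females pooled and no treatment or genetic alteration named. There was 1 group of 2 biological replicates, of which replicate 1 pooled limbs of 69 embryos and replicate 2 limbs of 51 embryos. The labels do not say whether forelimbs, hindlimbs or both were taken, so the values are averages over whole limbs of many embryos. Expected counts, the estimated numbers of reads per gene, summed to 40509328 and 43983028.

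Retinoic acid is made from vitamin A. Retinol is oxidised to retinal, which retinaldehyde dehydrogenases turn into retinoic acid, and cytochrome P450 enzymes of the Cyp26 family oxidise retinoic acid to products that are cleared. Cellular retinoic acid-binding proteins carry it in the cytoplasm. In the early limb, Aldh1a2 is known for its place in the flank and the proximal bud and Cyp26b1 for its place in the distal mesenchyme, so that retinoic acid signalling is kept to the proximal side.

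The tissue label was checked on marker genes. Levels are given as TPM, a read count corrected for transcript length and scaled to the library. Each of the 15 limb mesenchyme markers reached 1 TPM in both libraries, with summed TPM of 945.6 and 1123.3 in replicates 1 and 2, whereas 0 of 7 neural tube markers reached it, with sums of 0.49 and 0.28. The pools differed in other tissues. Cartilage markers summed to 189.3 and 417.2 TPM, ectoderm and ridge markers to 254.5 and 195.3, and erythroid markers to 11725 and 9550. Flank and coelomic lining markers summed to 37.2 and 40.2 TPM, but they did not move together. Among them Osr1 went from 16.25 to 30.22 TPM, while 5 of the 6 that averaged at least 10 counts were lower in replicate 2. In bulk tissue, fewer cells of a type and less RNA per cell cannot be told apart.

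The 3 Cyp26 genes were read at very different levels, and the sequence before each start is shown because the retinoic acid-degrading enzymes are themselves known retinoic acid targets. Sequences are from RefSeq on GRCm38.p6, given 5′ to 3′ on the gene's strand and ending just before the GENCODE M21 start. Capitals mark the half-sites of a direct repeat in Cyp26a1 and a TATAAA in Cyp26b1. The windows are chr19:37697558-37697797 (plus strand) for Cyp26a1, chr6:84593909-84594060 (minus strand) for Cyp26b1 and chr19:37685430-37685580 (plus strand) for Cyp26c1.
Cyp26a1: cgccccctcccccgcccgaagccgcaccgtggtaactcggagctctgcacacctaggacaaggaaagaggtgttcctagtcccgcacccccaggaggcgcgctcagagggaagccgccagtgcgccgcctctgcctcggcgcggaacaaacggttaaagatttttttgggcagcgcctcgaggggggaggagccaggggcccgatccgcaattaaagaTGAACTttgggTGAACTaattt
Cyp26b1: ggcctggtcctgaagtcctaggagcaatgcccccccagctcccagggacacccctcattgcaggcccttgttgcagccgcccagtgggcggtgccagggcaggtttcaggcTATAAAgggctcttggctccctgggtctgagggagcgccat
Cyp26c1: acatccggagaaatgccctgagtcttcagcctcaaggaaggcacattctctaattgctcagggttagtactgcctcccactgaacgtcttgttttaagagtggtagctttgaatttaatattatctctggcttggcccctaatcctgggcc

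Retinoic acid receptors bind direct repeats of a 6-base half-site. Each RefSeq window of 250 bases before a start was searched on both strands for direct repeats of the half-site AGGTCA or its variants AGTTCA and GGTTCA, as well as the form GGGTCA, in any combination. RefSeq windows were at hand for 6 of the 9 genes (Dhrs3 with 3 starts, Cyp26a1, Cyp26b1, Cyp26c1, Crabp1 and Aldh1a2). A repeat with 5 bases between the half-sites was found in Cyp26a1 and in no other of these 6 genes. It reads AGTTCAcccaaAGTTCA on the minus strand at chr19:37697776-37697792, from 32 to 16 bases before the RefSeq start and from 22 to 6 bases before the GENCODE start. Such a repeat was held by 29 of 32851 windows of all genes (0.0883%). Repeats with 1 base between the half-sites (0.164% of windows) or with 2 (0.174%) were in none of the 6 genes. The Cyp26a1 promoter is known for a retinoic acid response element close to its start, but binding was not measured here and the match is of letters alone.

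The TATAAA of Cyp26b1 lies on the gene's strand at chr6:84593944-84593949, from 41 to 36 bases before the GENCODE start and from 139 to 134 bases before the RefSeq start. The sequence TATAAA on the gene's strand was in 7.59% of all windows. Aldh1a2 has a promoter window of 77.6% G and C, which only 2.35% of windows equal or exceed, against a median of 52.4% over all windows and 61.6%, 64.8% and 51.2% in the Cyp26a1, Cyp26b1 and Cyp26c1 windows of 250 bases.

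The question the data can answer is how the RNA levels of the pathway's genes stood against each other over whole limbs. A second is whether both pools gave the same picture. Protein, enzyme activity and retinoic acid were not measured. The binding proteins led by far: Crabp1 and Crabp2 together took 95.4% of the summed TPM of the 9 genes in replicate 1 and 92.5% in replicate 2. The breakdown genes of the Cyp26 family summed to 27.6 and 37.5 TPM, most of it Cyp26b1, and the retinoic acid-forming Aldh1a genes stood at 18.3 and 20.8 TPM, most of it Aldh1a2. A level of 1 TPM was reached in both libraries by 7 of the 9 genes, all but Aldh1a3 and Cyp26c1. Of 21474 named protein-coding genes, 11853 did so, and these are called expressed below. The median over all 9 genes was 18.5 TPM, against 21.3 over the expressed protein-coding genes. The 9 include genes below 1 TPM and the 11853 do not, so these medians are over unlike sets. Aldh1a2, the gene at the median of the 9, lay at percentile 70.3 of all 21474 protein-coding genes. The order of the 9 genes by TPM was the same in each library.

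**Figure D1:**
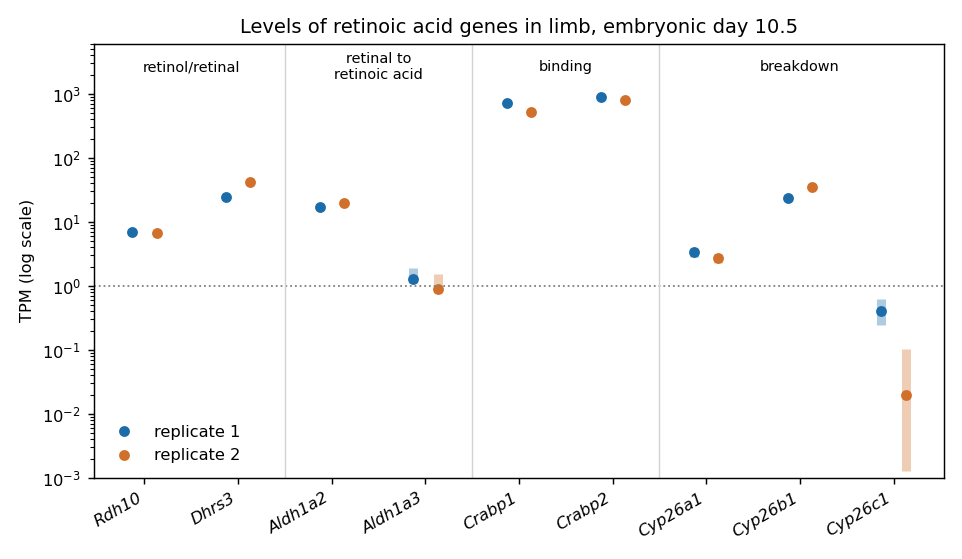
TPM of the 9 genes (log axis) in replicate 1 (blue) and replicate 2 (orange), grouped by step of the pathway, with bars for the deposited TPM interval of each library (hidden behind the points where narrow) and a dotted line at a TPM of 1. The Crabp genes lie at 516 TPM or more in both libraries, Aldh1a3 lies near the dotted line, and Cyp26c1 lies below it with intervals that do not overlap between libraries.

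Of the genes for the interconversion of retinol and retinal, Rdh10 stood low among expressed protein-coding genes and Dhrs3 above their median. Rdh10, the dehydrogenase that oxidises retinol to retinal (ENSMUSG00000025921.7, chromosome 1, 16105774 to 16133734, plus strand), had 626 and 634 counts in replicates 1 and 2, or 6.99 and 6.76 TPM, with a mean of 6.88 ± 0.163 (± is the SD over n = 2 libraries throughout). Its deposited TPM intervals, 6.33 to 7.48 and 6.14 to 7.24, overlapped, and it lay at percentile 23.6 of expressed protein-coding genes. Dhrs3, which runs the reverse step and returns retinal to retinol (ENSMUSG00000066026.10, chromosome 4, 144892827 to 144928209, plus strand), had 1028 and 1749 counts, or 24.6 and 41.8 TPM. Its mean over all its transcripts was 33.2 ± 12.1, the highest of the 7 enzymes. The intervals of Dhrs3, 22.8 to 26.6 and 38.8 to 43.9 TPM, did not overlap between libraries. Dhrs3 exceeded Rdh10 in TPM 3.52-fold in replicate 1 and 6.19-fold in replicate 2.

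Of the enzymes that form retinoic acid, Aldh1a2 held nearly all the signal. Aldh1a2, the main retinaldehyde dehydrogenase of the early embryo (ENSMUSG00000013584.5, chromosome 9, 71215789 to 71296243, plus strand), had 983 and 1196 counts, or 17.0 and 19.9 TPM (18.5 ± 2.02). The pools gave intervals of 15.7 to 17.8 and 18.4 to 20.6 TPM, close but not overlapping. Aldh1a3, known mainly from the eye and nasal region (ENSMUSG00000015134.10, chromosome 7, 66390890 to 66427517, minus strand), had 55 and 41 counts, or 1.28 and 0.89 TPM (1.09 ± 0.276), with overlapping intervals of 1.09 to 1.93 and 0.770 to 1.504. Aldh1a2 took 93.0% of the summed TPM of these genes in replicate 1 and 95.7% in replicate 2. Aldh1a1, another retinaldehyde dehydrogenase and not among the 9 genes, had 10 and 9 counts (0.180 ± 0.0141 TPM).

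The binding proteins were among the most abundant messages of the tissue. Crabp2, which passes retinoic acid to its nuclear receptors (ENSMUSG00000004885.5, chromosome 3, 87948666 to 87953376, plus strand), had 19712 and 18285 counts, or 890 and 792 TPM (841 ± 69.1), and lay at percentile 99.0 of expressed protein-coding genes. Crabp1, linked to the handling of retinoic acid in the cytoplasm and to its breakdown (ENSMUSG00000032291.8, chromosome 9, 54764748 to 54773110, plus strand), had 13396 and 10077 counts, or 715 and 516 TPM (615 ± 141), at percentile 98.4. Crabp2 exceeded Crabp1 in both pools, 1.25-fold in replicate 1 and 1.54-fold in replicate 2, and took 55.5% and 60.6% of their sum. The deposited intervals were 859 to 884 and 765 to 788 TPM for Crabp2, and 688 to 712 and 496 to 515 TPM for Crabp1. The TPM of both genes lies just above its interval in each library; the interval surrounds another deposited estimate, the posterior mean, which was 700 and 506 TPM for Crabp1. The summed TPM of the Crabp genes was 87.7 and 63.0 times that of Aldh1a2 and Aldh1a3.

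Among the breakdown genes, Cyp26b1 had the most RNA. Cyp26b1, which degrades retinoic acid (ENSMUSG00000063415.8, chromosome 6, 84571414 to 84593908, minus strand) had 2918 and 4443 counts, or 23.8 and 34.8 TPM (29.3 ± 7.75), with intervals of 22.4 to 24.1 and 33.03 to 35.03 that did not overlap. Cyp26a1, the family member whose promoter repeat is shown above (ENSMUSG00000024987.5, chromosome 19, 37697798 to 37701536, plus strand), had 150 and 128 counts, or 3.36 and 2.75 TPM (3.06 ± 0.431), with overlapping intervals of 2.81 to 3.86 and 2.26 to 3.20. Cyp26b1 made up 86.3% of the summed TPM of the 3 genes in replicate 1 and 92.6% in replicate 2. The Cyp26 sum exceeded the Aldh1a sum 1.51-fold and 1.81-fold.

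Cyp26c1 (ENSMUSG00000062432.4, chromosome 19, 37685581 to 37693398, plus strand) ends 4399 nt before the start of Cyp26a1 on the same strand and is known mainly from the hindbrain and head. It had 18 counts in replicate 1 and 1 count in replicate 2, or 0.41 and 0.02 TPM. Its intervals, 0.244 to 0.617 and 0.00126 to 0.103 TPM, did not overlap. Of its 19 reads, 94.7% came from replicate 1 (exact binomial 95% interval 74.0% to 99.9%). After scaling for library size, replicate 1 was 20.6-fold higher, with a counting interval from 3.26 to 860. That ratio is of scaled counts with no prior count. With the prior count of 2 used for the differences below, replicate 1 was 7.26-fold higher, so these few reads give no firm size. Neural tube markers were also at few counts and did not move together. Pax6 had 9 and 4, Neurog2 6 and 2, Neurog1 4 and 1 and Olig2 4 and 0 in replicates 1 and 2. Sox2 went the other way, with 5 and 9, as did Sox1 with 1 and 2, and Nkx2-2 had 0 in both. The part of these markers in the Cyp26c1 difference was not tested.

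Pairs of genes were called ordered where the deposited TPM intervals of the genes were apart in each library, with the same gene on top. That held for 35 of the 36 pairs among the 9 genes, against 88.9% of all pairs of protein-coding genes with a count in both libraries, and TPM differed at least 2-fold in both libraries in 32. Between neighbours in the order, 7 of 8 pairs were ordered. The exception was Dhrs3 against Cyp26b1: Dhrs3 was higher 1.04-fold in replicate 1, where the intervals overlapped, and 1.20-fold in replicate 2, where they did not. The widest gap between neighbours outside Cyp26c1 was that from Crabp1 down to Dhrs3, 29.0-fold in replicate 1 and 12.3-fold in replicate 2. Below it, Aldh1a2 exceeded Rdh10 2.44-fold and 2.94-fold, Rdh10 exceeded Cyp26a1 2.08-fold and 2.46-fold, and Cyp26a1 exceeded Aldh1a3 2.63-fold and 3.09-fold. These steps held in each pool at a similar size. Dhrs3 exceeded Aldh1a2 1.45-fold in replicate 1 and 2.10-fold in replicate 2.

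The pools differed in the levels of individual genes. On counts scaled by TMM (a library scaling that assumes most genes do not differ), 8 of the 9 genes averaged 10 counts or more. Of these, 0 lay 2-fold or more higher in replicate 2 and 0 lay 2-fold or more lower, against 4.03% and 1.48% of the 16860 genes past that filter. At 1.5-fold, 0 of 8 were higher and 2 were lower, Crabp1 and Aldh1a3, against 9.96% and 4.65%. These calls depend on the scaling. Under spike-in scaling 2 were higher, Dhrs3 at a log2 difference of 0.82 and Cyp26b1 at 0.66, and 0 were lower, against 19% and 2.32% of all genes. By deposited TPM 1 was higher, Dhrs3 at 0.76, and 0 were lower, against 13.2% and 3.01%. Each pool is 1 library, so these are differences between libraries with no test. The exact binomial 95% interval for counting error excluded 0 in 7 of 8, all but Aldh1a2, against 53.3% of all genes. That interval does not cover differences between embryos or library preparation.

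Dhrs3 and Cyp26b1 were the genes higher in replicate 2, by log2 differences (replicate 2 minus replicate 1) of 0.57 (counting interval 0.46 to 0.68) and 0.41 (0.34 to 0.48). By known function the former returns retinal to retinol and the latter degrades retinoic acid, as does Cyp26a1, which was lower in replicate 2. A joint effect on retinoic acid was not tested. Aldh1a2 differed by 0.09 (-0.04 to 0.21), within counting error. Lower in replicate 2 were Crabp1 by a log2 difference of -0.61 (-0.65 to -0.57), Aldh1a3 by -0.60 (-1.24 to -0.01), Cyp26a1 by -0.42 (-0.78 to -0.08), Crabp2 by -0.31 (-0.34 to -0.28) and Rdh10 by -0.18 (-0.34 to -0.02).

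The middle 95% of the 12254 genes averaging at least 100 counts ran from -0.49 to 0.76. Among the 7 genes here that are counted that deeply, Crabp1 lies outside this range and the others lie inside. The median of the 8 genes was -0.24, against 0.01 for all genes tested. Scaling by spike-in RNAs moved the median of all genes to 0.26, and deposited TPM moved it to 0.15. Spike-in scaling moves all genes by nearly the same amount, and with that shift Rdh10 stood at 0.07, Crabp2 at -0.05 and Crabp1 at -0.35. Among all genes 2-fold different, 73.2% were higher in replicate 2 under TMM, 83.4% by deposited TPM and 90% under spike-in scaling.

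**Figure D2:**
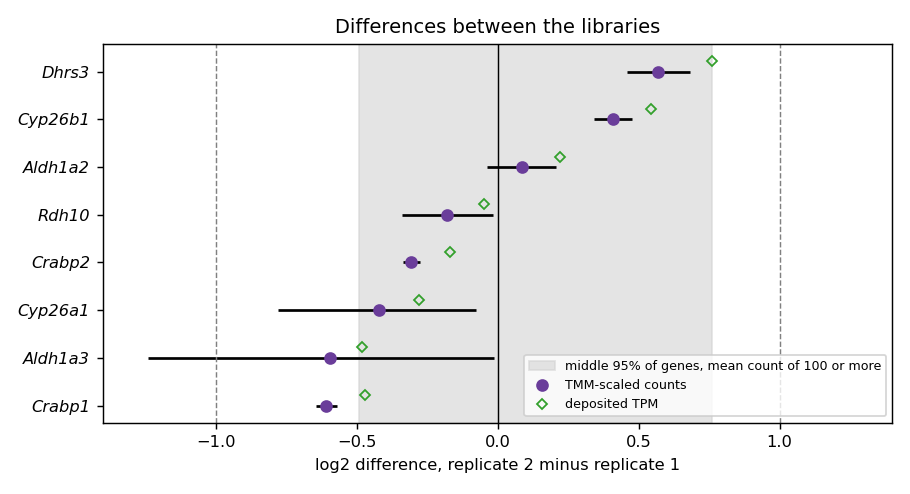
Log2 difference between libraries (replicate 2 minus replicate 1) for the 8 genes that averaged at least 10 counts: filled points are TMM-scaled counts with exact binomial 95% counting intervals, diamonds are deposited TPM, the grey band is the middle 95% of genes averaging at least 100 counts, and dashed lines mark 2-fold. Dhrs3 and Cyp26b1 lie to the right at 0.57 and 0.41, Crabp1 and Aldh1a3 lie to the left at -0.61 and -0.60, and no point reaches a dashed line.

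Markers of other tissues moved between the pools as well, where the counting interval excluded 0 in 53.3% of all genes. Of 7 cartilage markers tested, 6 had counting intervals above 0 and Hapln1 had its interval below, with a median log2 difference of 1.18, and the cartilage collagen Col2a1 went from 60.6 to 157.5 TPM, with Col9a3 (3.32 to 25.5 TPM) and Col9a2 (0.92 to 7.72 TPM) also over 2-fold higher. All 9 ectoderm and ridge markers had intervals below 0, with a median of -0.48; Fgf8, the growth factor of the apical ridge, went from 88.5 to 65.9 TPM. Of 6 flank and coelomic lining markers tested, 5 had intervals below 0 and 1 above, with a median of -1.31. Upk3b, a gene of the coelomic lining, went from 423 to 120 counts, while Osr1 went from 828 to 1604. The erythroid list had 4 of 5 intervals below 0, with a median of -0.39. Muscle precursor markers summed to 25.6 and 50.7 TPM, with 3 of 5 intervals above 0 and 2 below. The muscle regulators Myod1 and Myog went from 1.05 to 11.6 TPM and from 1.67 to 13.4 TPM. Lbx1 and Pax3 were lower, from 5.27 to 3.28 TPM and from 10.5 to 9.69 TPM. Of 8 somite and sclerotome markers tested, 3 lay 2-fold or more higher (Tbx18 at 10.5 and 23.8 TPM, Pax1 at 2.15 and 9.12 and Pax9 at 0.42 and 1.84) and 1 lay 2-fold or more lower (Uncx).

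Genes of limb type and position moved too. The hindlimb genes Pitx1 and Tbx4 went from 65.0 to 126.5 TPM and from 19.7 to 41.1 TPM, while the forelimb gene Tbx5 stood at 28.8 and 26.4 TPM. Hoxa13, a gene of the distal limb, went from 2.25 to 9.28 TPM. It was the 1 limb mesenchyme marker of 15 that lay 2-fold or more higher, and 0 lay 2-fold or more lower. Of these 15 markers, 9 had counting intervals above 0 and 5 below. Among the lower ones, Fgf10 went from 15.57 to 10.29 TPM and Lhx2 from 40.65 to 28.33 TPM. The part of any of these tissues, of limb type or of stage in the differences of Dhrs3, Cyp26b1, Crabp1 and Crabp2 was not tested.

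Transcripts were looked at next, since the level of a gene can hide forms that make no full protein. Of the 9 genes, 4 have a single annotated transcript in the tables (Aldh1a2, Crabp1, Cyp26a1 and Cyp26c1) and 5 have several. In 7 genes a single transcript took 90% or more of the gene's TPM in both libraries, 3 of them with several transcripts to choose from. The leading transcript was the same in both libraries for all 9 genes. The exceptions to a dominant form were Dhrs3 and Aldh1a3.

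Dhrs3 was divided among 7 transcripts, all with counts in at least 1 library. Dhrs3-207, with a coding sequence of 828 nt, took 38.8% and 34.7% of the gene's TPM in replicates 1 and 2, and Dhrs3-206, with the longest coding sequence of 906 nt, took 29.1% and 23.7%. Dhrs3-201, annotated as a target of nonsense-mediated decay, the route that destroys messages with an early stop codon, took 19.0% and 25.5%. Its level was 4.69 TPM in replicate 1 (interval 2.998 to 6.34) and 10.7 TPM in replicate 2 (8.51 to 12.6), without overlap. Transcripts annotated as protein-coding took 76.4% of Dhrs3 in replicate 1 and 67.3% in replicate 2. Coding forms went from 18.8 to 28.1 TPM and the other forms from 5.80 to 13.7 TPM, so both classes were higher in replicate 2. Cyp26b1, with coding forms alone, stood at 23.8 and 34.8 TPM, above the coding forms of Dhrs3 in both libraries. The rank of Dhrs3 above Cyp26b1 is therefore one of gene TPM over all forms. Reads shared by the Dhrs3 transcripts were divided by the estimate, and single shares of Dhrs3 rest on it.

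Aldh1a3 was read mostly as a short form. Aldh1a3-203, 1496 nt long with a coding sequence of 528 nt, took 88.8% and 86.8% of the gene's TPM, while Aldh1a3-201, 3441 nt long in the tables with the full coding sequence of 1536 nt, took 11.2% and 13.2%. The counts behind them are few: 42.3 and 30.1 for Aldh1a3-203, 12.7 and 11.0 for Aldh1a3-201. The remaining 3 transcripts had no count in either library. By posterior mean, the share of Aldh1a3-203 over both libraries was 72.4%.

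Rdh10-201, the coding transcript, took 92.1% and 93.1% of Rdh10, and a form with a retained intron took the other 7.89% and 6.92%. Crabp2-201 took 99.5% of Crabp2 in each library. Cyp26b1-202 took 100% and 96.7% of Cyp26b1, and Cyp26b1-201, which has a coding sequence of the same 1536 nt, took 0% and 3.34%. The tables give 4700 and 4751 nt for these Cyp26b1 transcripts where GENCODE M21 gives 4170 and 4157 nt, so the models differ between releases.

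**Figure D3:**
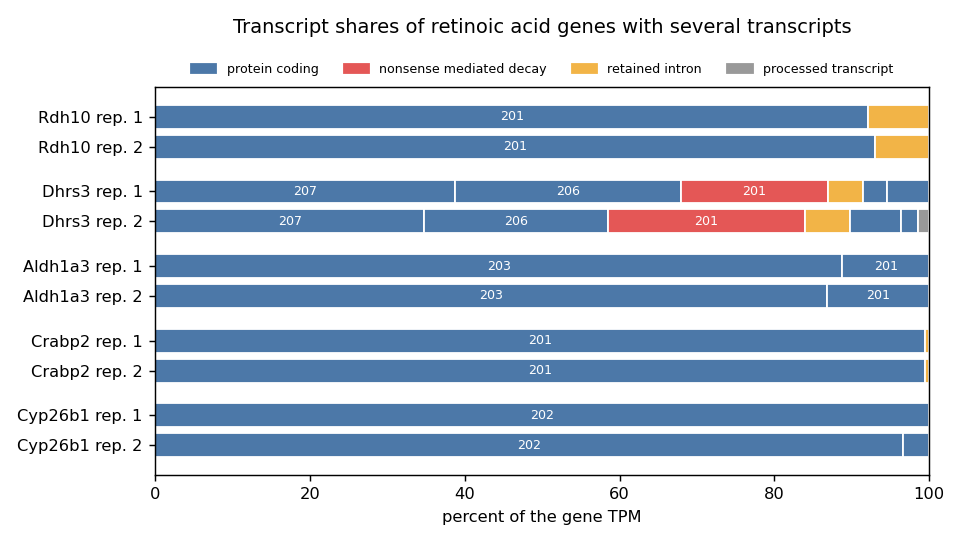
Percent of the gene TPM taken by each transcript in the 5 genes with several transcripts, with 1 bar for each library and colours for the annotated transcript type; numbers in the bars are the endings of transcript names. Dhrs3 is split, with its nonsense-mediated decay form at 19.0% and 25.5%, while Rdh10, Crabp2 and Cyp26b1 are led by a single coding form above 90%.

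Related genes can trade reads, so sequence likeness was measured on the GENCODE M21 transcripts with the longest coding sequence. The longest run of identical bases between any pair of the 9 was 26 nt, between Aldh1a2 and Aldh1a3, whose coding sequences were 68.6% identical. Crabp1 and Crabp2, with coding sequences of 411 and 414 nt at 70.8% identity, shared no run over 11 nt. Cyp26b1 and Cyp26c1 were 63.0% identical, and Cyp26a1 was 56.6% and 56.2% identical to them; their longest shared runs were 15 to 20 nt. Gene-level expected counts of all 9 genes were whole numbers in both libraries, as they are where no read is divided with another gene. Within 2000 nt, Aldh1a2 overlaps the pseudogene Gm48124 on the other strand, Rdh10 lies 1112 nt from the ribosomal protein gene Rpl7, and Cyp26c1 lies 1522 nt from Exoc6. Whether counting used strand is not given in the sources used here.

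The rest of the retinoid pathway was read from 5 further lists of 67 genes. Of these, 42 reached 1 TPM in both libraries, as did 11853 of 21474 protein-coding genes. Of 49 that averaged at least 10 counts, 2 lay 2-fold or more higher in replicate 2 (Stra6l and Ncoa1) and 3 lay 2-fold or more lower (Cdx1, Hoxd4 and Aldh1a7, each averaging under 100 counts), against 4.03% and 1.48% of all genes. Their levels set the 9 genes in the wider chain.

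For uptake, carriage and storage, 6 of 14 genes reached 1 TPM in both libraries. Stra6, the membrane receptor that takes in retinol, stood at 43.99 ± 8.85 TPM. Dgat1, which makes esters, stood at 53.9 ± 7.403. Lrat, the main retinol-esterifying enzyme, had 0 counts in both libraries. Stra6l, a relative of Stra6, went from 60 to 149 counts, a log2 difference of 1.09 (0.67 to 1.57).

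Among 23 other retinol and retinal enzymes, 12 reached 1 TPM in both libraries and 5 had no count (Dhrs9, Sdr16c5, Adh4, Rdh7 and Rdh16). Adh5, a dehydrogenase of broad expression, led at 223 ± 14.9 TPM, followed by Dhrs4 at 49.1 ± 2.98, Rdh13 at 27.9 ± 1.80 and Rdh14 at 18.1 ± 3.56. Cyp26 enzymes need electrons from partner proteins, and all 4 genes of that list were expressed: Cyb5a, a cytochrome b5, at 227 ± 13.8 TPM, Por, the P450 reductase, at 145 ± 8.75, Cyb5r3 at 119 ± 6.80 and Cyb5b at 107 ± 1.77. Each stood above every Cyp26 gene in TPM.

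Of 13 receptors, cofactors and other carriers, 12 reached 1 TPM in both libraries. Fabp5, a fatty acid-binding protein that can also carry retinoic acid, stood at 338 ± 48.1 TPM, below both Crabp genes. Ncor1, a corepressor, stood at 113 ± 10.6, the receptor gene Rarg at 109 ± 22.2 and the partner receptor gene Rxrb at 41.5 ± 0.841. The exception was the coactivator gene Ncoa1, which went from 132 to 315 counts, a log2 difference of 1.05 (0.76 to 1.36), and from 0.68 to 1.57 TPM.

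Of 13 genes listed as known retinoic acid targets, 8 reached 1 TPM in both libraries. The proximal limb genes Meis1 and Meis2 led at 95.8 ± 6.63 and 54.2 ± 1.89 TPM, followed by the corepressor gene Nrip1 at 29.7 ± 1.24 and the zinc finger gene Tshz3 at 8.27 ± 0.870, and Stra8, a germ cell gene, had 0 counts in both libraries. Of 12 tested, the counting interval lay above 0 in 1 and below 0 in 6, where it excluded 0 in 53.3% of all genes. The median log2 difference was -0.42, against 0.01 for all genes tested. These are TMM values. Under spike-in scaling, which put the median of all genes at 0.26, Meis2 stood at 0.14 and Cdx1 at -1.64. Meis1, at 91.2 and 100.5 TPM, differed by -0.01 (-0.06 to 0.04), and Meis2 by -0.11 (-0.17 to -0.05).

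**Figure D4:**
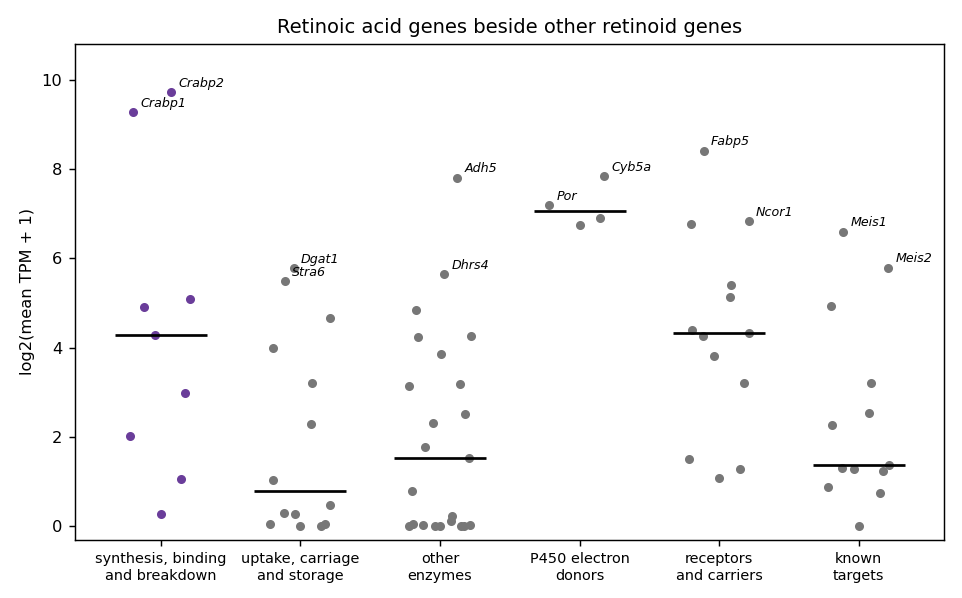
Mean TPM over the libraries, as log2(TPM + 1), of the 9 genes (purple) and of the genes of 5 further retinoid lists (grey), 1 point for each gene, with a bar at the median of each list; sideways spread only separates points. Crabp2 and Crabp1 are the highest points of all lists, and all 4 electron partners lie well above the Cyp26 genes, whose highest, Cyp26b1, is at 29.3 TPM.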

How the data were processed

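Total RNA of mouse limb was measured in 2 biological replicates. The authors' deposited gene tables give expected counts and TPM for each library, and the deposited transcript tables add the percent of the gene TPM for each transcript. A posterior mean TPM with interval bounds of unstated level is also deposited. Per the sample text files, values were quantified from transcriptome alignments to mm10 with GENCODE M4, each library alone; the quantifier is not given in the sources used here. Effective length was the length minus 99 nt, and TPM was scaled over all rows, spike-ins included.

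GENCODE M21 on GRCm38 gave names, transcript types and coordinates. GRCm38 is the assembly of mm10, and rows were matched by identifier without version (42462 of 43346 Ensembl rows, 98.0%). Rows without an Ensembl identifier, spike-ins included, stayed out of library sizes. Rounded expected counts were scaled by TMM in edgeR 4.0.16 (R 4.3.3), giving log2 CPM with a prior count of 2, for genes averaging at least 10 counts. DESeq2 1.42.0 size factors, spike-in scaling (1577002 and 1517205 counts), deposited TPM with a pseudocount of 0.1, posterior means, other filters and folds were the alternatives. Counting intervals are exact binomial (95%) and cover counting error only, since reads carry no molecular identifiers. Python 3.11.15 with Biopython 1.88, scipy 1.17.1, pandas 2.3.3, numpy 2.4.6 and matplotlib 3.10.9 did the rest. The count step was run on simulated counts with 200 changed genes and counting error alone. That simulation has no variation between pools, so it cannot say how often real pools differ by 2-fold or 1.5-fold. With 1 group of 2 libraries no p-value is given.

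The genes and lists were chosen with earlier results of these data known. The naming rule allows all 9 genes, up to 4 highest and the lowest of every other list, list genes 2-fold different at a mean count of 100 or more, and transcripts leading a gene or with 10% or more. Not every gene it allows is named. Pitx1, Tbx4, Tbx5, Aldh1a1, Lrat, Hapln1, Cdx1, Hoxd4, Aldh1a7 and the 5 enzyme genes with no count were named after their values were seen. The same holds for Fgf10, Lhx2, Olig2 and Sox1.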

Additional observations from a re-analysis of the deposited data

How the results depend on the processing

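The 35 ordered pairs became 36 by the order of TPM alone and 32 with a 2-fold gap in both libraries, and 36 and 35 in single libraries (replicates 2 and 1). The 7 genes at 1 TPM became 8 by posterior mean or in replicate 1 alone. The 7 genes led by a single transcript stayed 7 in each alternative run, 4 of them because they have only 1 annotated transcript. The count of genes 2-fold different, 0, stayed 0 with DESeq2 size factors, spike-in scaling, deposited TPM, posterior mean TPM, a prior count of 0.5 and a mean count of 100 or more. It became 1 with no filter on low counts (Cyp26c1) and 2 at 1.5-fold (Crabp1 and Aldh1a3, lower). At 1.5-fold under spike-in scaling these are replaced by Dhrs3 and Cyp26b1, higher, and by deposited TPM by Dhrs3 alone. Among 45 recomputed log2 differences of single genes, 29 stayed inside the counting interval of the main run, 15 moved outside it and 1 reversed. The reversed one was Rdh10, at 0.074 under spike-in scaling against -0.18. Spike-in scaling moves all genes by nearly the same amount. Dhrs3 reached 0.82 under spike-in scaling and 0.76 by deposited TPM. The difference between libraries cannot be recomputed without either replicate. No paired analysis was possible because there is 1 group. Depth limits Cyp26c1 (18 and 1 counts) and the transcripts of Aldh1a3.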
